A study of Mus musculus with 8 samples.

Results

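The genes described here are 31 genes of cholesterol and fatty acid synthesis, chosen by name as genes under the control of the SREBP transcription factors or close to them, among 55421 genes in the table of read counts. All 31 were found by symbol, and all 31 passed the filter on low counts, which left 20588 genes for testing. Expression was measured by RNA-seq in 8 libraries of mouse SSC cultures, which are primary cultures of spermatogonia (germ line stem and progenitor cells of the testis) of strain background C57BL/6XDBA/2. There were 2 libraries for each of 4 groups: Stra8KO and Spo11KO cultures, each with vehicle (Veh) or with NRRA, a nutrient restriction medium combined with retinoic acid. Cultures were begun from testes of pups 6 days old, the non-adherent cells were grown on irradiated embryonic fibroblasts of another mouse stock as feeders, and treatment lasted 2 days. All groups were grown with N2 supplement, bFGF and GDNF, but not at equal concentration. The study's nutrient restriction medium is its culture medium diluted in a larger volume of a balanced salt solution. NRRA cultures thus had less of these supplements, and of the serum and albumin of that medium, than Veh cultures. Each group carries one of the 2 gene knockouts, and no wild-type culture was analysed here. The study asked what these 2 genes contribute to the meiotic program that NRRA starts. Stra8 is a regulator of meiotic entry, and Spo11 cuts DNA for meiotic recombination. The feeders are not derived from the knockout mice, so part of the RNA of each library can come from fibroblasts, and in bulk samples fewer cells of a type and less RNA per cell cannot be told apart.

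Cells build cholesterol from acetyl-CoA by way of mevalonate, farnesyl diphosphate, squalene and lanosterol, and build fatty acids from acetyl-CoA by way of malonyl-CoA and palmitate, which elongases and desaturases then modify. Both routes are controlled at the level of transcription by SREBP2 (gene Srebf2), which acts mainly on sterol genes, and SREBP1 (gene Srebf1), which acts mainly on fatty acid genes. The precursors sit in the membrane of the endoplasmic reticulum, where INSIG proteins hold them when sterols are plentiful, and they are cut in the Golgi to release the active factor when sterols run low. Oxysterols act through the LXR receptors, which raise sterol efflux genes. Differentiating germ cells are known for a high content of long polyunsaturated fatty acids, for which the products of Fads1 and Fads2 are the desaturases.

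Libraries held 20960794 to 27038868 counts, and the common biological coefficient of variation was 3.39%. By the study's own account replicate libraries are biologically independent, and the labels do not name the cultures or mice behind each library. P-values measure the spread between these libraries. In the Stra8KO cultures Stra8 had 2 and 0 counts with Veh and 169 and 170 with NRRA, and in the Spo11KO cultures it had 28 and 12 with Veh and 12604 and 16191 with NRRA. Spo11 had 32 and 31, 68 and 66, 72 and 75, and 148 and 127 counts in the same order, so libraries with the Spo11KO label did not have the lower Spo11 count and the table gives no check of that label. The name Spo11KO is used below as the label gives it. The unit of level is CPM, counts per 1e+06 of the TMM-scaled library total. A gene was called when its adjusted p (edgeR's quasi-likelihood test, two-sided, Benjamini-Hochberg over all 20588 tested genes) was under 0.05, and each fold change is on the log2 scale with its standard error (n = 2 libraries per group).

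The promoters of the genes were examined first for letters that SREBP and its partner factors are known to bind. A RefSeq promoter window of 300 bases (GRCm38.p6), from 250 bases before to 50 bases after the start, was given for 24 of the 31 genes and for 13238 of the tested genes. Matches on both strands were counted, and a gene with several windows counted once if any of them matched. The sterol regulatory element TCACNCCAC stood in the window of 1 of the 24 genes (4.17%), Hmgcs1, and in 1.43% of the tested genes. The NF-Y box CCAAT, where a partner of SREBP binds, stood in 20 of the 24 (83.3%) against 42.6% of the tested genes. The Sp1 box GGGCGG stood in 20 of the 24 (83.3%) against 63.3%, and the E-box CACGTG, which SREBP1 can also bind, in 4 of the 24 (16.7%) against 11%. A match is a description of the letters, and no match says only that these letters are not in this window. The core CACNCCAC, the last 8 letters of the element, was found in 3 of the 24 genes (Hmgcs1, Insig1 and Acat2) and in 7.12% of all genes with a window. These are shown because, among the 24, only their windows hold the element or its core. Whether the matches act in a response to sterols was not tested. Sqle, Stard4, Fdps, Scd1, Scd2, Fdft1 and Fads1 had no window given and were not examined. Capitals mark the whole element in Hmgcs1 (bases -137 to -129 from the start) and the core in the other two.
Hmgcs1, chr13:119690101-119690400, plus strand: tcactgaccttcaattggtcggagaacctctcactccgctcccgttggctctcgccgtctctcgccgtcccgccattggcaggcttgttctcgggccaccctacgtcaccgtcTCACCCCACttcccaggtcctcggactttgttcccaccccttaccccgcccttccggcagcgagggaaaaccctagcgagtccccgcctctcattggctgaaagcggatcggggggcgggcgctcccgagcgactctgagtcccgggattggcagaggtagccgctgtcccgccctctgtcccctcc
Insig1, chr5:28071162-28071461, plus strand: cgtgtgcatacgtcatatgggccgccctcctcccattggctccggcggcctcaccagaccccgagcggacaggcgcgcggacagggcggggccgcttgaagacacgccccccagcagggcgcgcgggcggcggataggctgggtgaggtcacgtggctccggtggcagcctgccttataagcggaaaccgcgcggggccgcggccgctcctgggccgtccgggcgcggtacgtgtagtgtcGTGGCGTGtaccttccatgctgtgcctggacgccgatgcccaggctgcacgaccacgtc
Acat2, chr17:12960676-12960975, minus strand: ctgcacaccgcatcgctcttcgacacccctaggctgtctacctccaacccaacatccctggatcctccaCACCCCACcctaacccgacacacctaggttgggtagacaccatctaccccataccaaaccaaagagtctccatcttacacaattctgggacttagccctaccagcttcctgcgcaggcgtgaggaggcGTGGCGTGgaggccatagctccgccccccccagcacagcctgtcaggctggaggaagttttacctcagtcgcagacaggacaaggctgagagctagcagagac
In Insig1 the core lies at bases -9 to -2 on the opposite strand of the gene, and Acat2 holds it once on each strand. All 3 windows hold a Sp1 box, those of Hmgcs1 and Insig1 also hold an NF-Y box, and that of Insig1 an E-box.

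With NRRA, Hmgcs1, Sqle and Lss of sterol synthesis, Fasn, and the desaturase genes Scd1 and Scd2 fell in both cultures, and the desaturase genes Fads1 and Fads2 rose in both. Srebf2, Srebf1 and Idi1 fell in Spo11KO, and Elovl6 and Dhcr7 moved in opposite directions in the 2 cultures. In Stra8KO, 5 of the 31 genes rose and 12 fell with NRRA, where 21.6% of all tested genes rose and 20.2% fell. In Spo11KO, 5 rose and 17 fell, where 24.5% of all tested genes rose and 25.5% fell. The median log2 fold change of the set was -0.087 (range -0.65 to 0.98) in Stra8KO and -0.29 (range -0.93 to 0.64) in Spo11KO, beside 0.014 and 0.013 over all tested genes. No member reached a change of 2-fold in either culture. For every member called in these comparisons, 17 in Stra8KO and 22 in Spo11KO, the libraries of the groups did not overlap. Counting members without a call too, 26 of the 31 in Stra8KO and 27 in Spo11KO had no overlap. The share of all tested genes without overlap is not given here. Scaling to total counts in place of TMM moved the median of all tested genes by 0.092 in Spo11KO. There, 8 members rose and 16 fell (median -0.20) on that scale, and rises made up 61.7% of all calls against 49% with TMM. Markers of fibroblasts moved with NRRA as well, but not one way: of 19, 11 rose and 6 fell in Stra8KO and 12 rose and 7 fell in Spo11KO. Their part in these changes was not tested.

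The 2 NRRA comparisons share no library. Fads1 and Fads2 rose in both, and 9 genes fell in both: Hmgcs1, Sqle, Lss, Cyp51, Hsd17b7, Insig1, Fasn, Scd1 and Scd2. The share of all tested genes that rose or fell in both is not given here. Idi1, Fdft1, Msmo1, Srebf1, Srebf2 and Stard4 fell in Spo11KO and were not called in Stra8KO. Dhcr7 and Elovl6 rose in Stra8KO and fell in Spo11KO, and Acaca fell in Stra8KO and rose in Spo11KO. Acss2 and Sc5d rose in Spo11KO, Nsdhl rose in Stra8KO, and Acat2 and Acly fell in Stra8KO, each with no call in the other culture. Ebp, Fdps, Mvd, Mvk, Pmvk and Tm7sf2 were called in neither. Some of these calls were lost when 1 library was left out. Acaca lost its call in Stra8KO without Veh replicate 1 (-0.11, adjusted p = 0.161), Veh replicate 2 (-0.11, adjusted p = 0.128) or NRRA replicate 1 (-0.070, adjusted p = 0.341). Insig1 lost its call there without Veh replicate 1 (-0.14, adjusted p = 0.0958), Veh replicate 2 (-0.13, adjusted p = 0.137) or NRRA replicate 2 (-0.096, adjusted p = 0.266), and Nsdhl without Veh replicate 2 (0.19, adjusted p = 0.0646) or NRRA replicate 1 (0.16, adjusted p = 0.106). In Spo11KO, Fads1 lost its call without NRRA replicate 2 (0.10, adjusted p = 0.135). Fdft1 lost it without Veh replicate 2 (-0.11, adjusted p = 0.126), NRRA replicate 1 (-0.13, adjusted p = 0.064) or NRRA replicate 2 (-0.14, adjusted p = 0.0609).

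**Figure D1:**
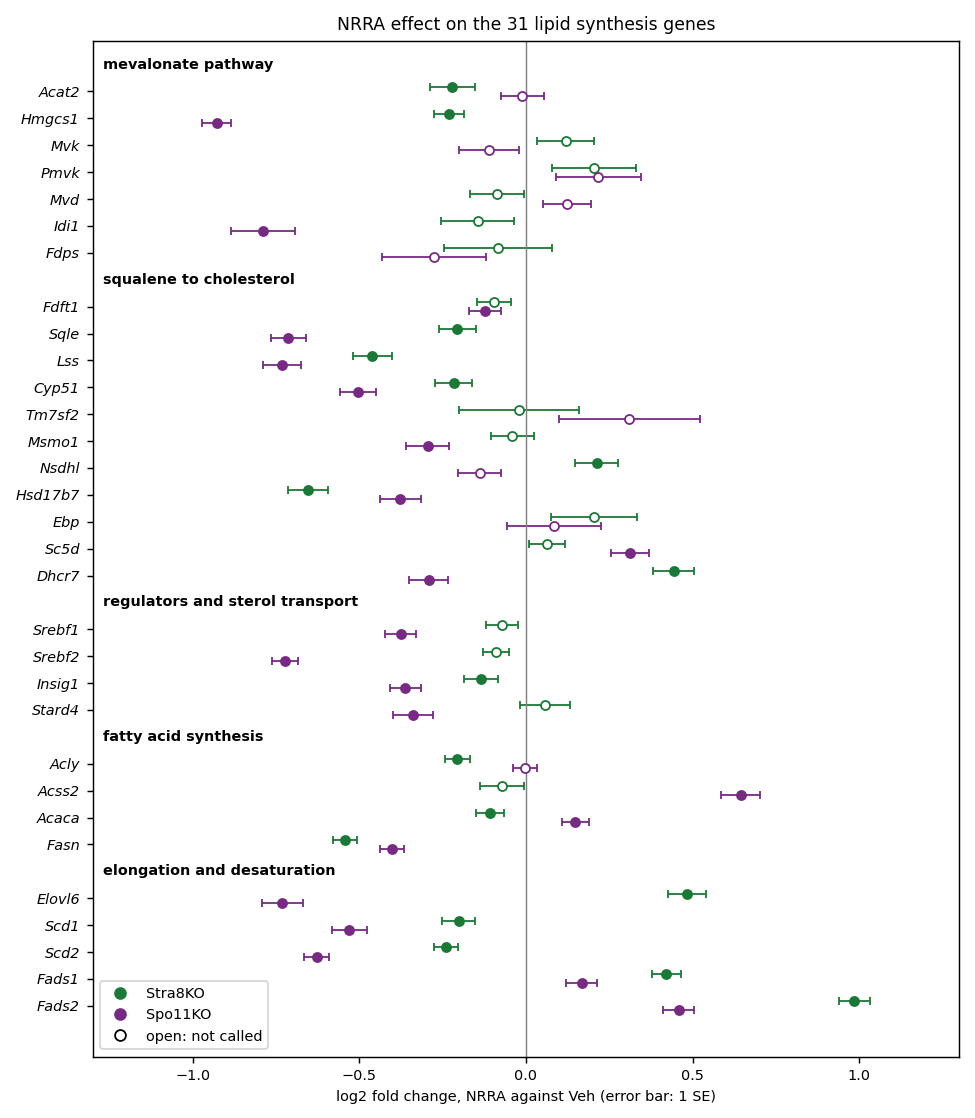
Log2 fold change of NRRA against Veh (x axis) for each of the 31 genes (y axis, grouped by role), in Stra8KO (green) and Spo11KO (purple), with bars of 1 standard error; filled points were called at an adjusted p under 0.05 and open points were not. In the cholesterol groups most purple points lie left of the green ones, and Elovl6 and Dhcr7 have points on both sides of 0.

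The mevalonate pathway makes the building block of all isoprenoids, and 2 of its 7 genes fell with NRRA in each culture, while the other 5 were not called. These are 28.6% of the group, near the 20.2% of all tested genes that fell in Stra8KO and the 25.5% in Spo11KO. The NRRA counts of the member groups below are also to be read against these shares. For rises the shares of all tested genes are 21.6% in Stra8KO and 24.5% in Spo11KO. Hmgcs1, which encodes HMG-CoA synthase (chr13:119690379-119708260, GRCm38), had 134.8 and 139.6 CPM with Veh against 120.5 and 113.3 with NRRA in Stra8KO, and 236.8 and 250.7 with Veh against 125.5 and 130.6 with NRRA in Spo11KO. The Spo11KO Veh libraries stood well above the other 6, and Veh and NRRA did not overlap in either culture. Its log2 fold change with NRRA was -0.23 ± 0.045, adjusted p = 3.15e-05 in Stra8KO and -0.93 ± 0.043, adjusted p = 2.32e-24 in Spo11KO, the largest fall of any member there. Idi1, the isomerase that makes dimethylallyl diphosphate, had 13.4 and 12.3 CPM with Veh against 12.6 and 10.8 with NRRA in Stra8KO, and 20.97 and 21.1 with Veh against 12.5 and 11.8 with NRRA in Spo11KO. It followed the order of Hmgcs1, with the Spo11KO Veh pair apart and overlap between Veh and NRRA in Stra8KO. The Idi1 change was -0.79 ± 0.095, adjusted p = 7.57e-10 in Spo11KO and -0.15 ± 0.11, adjusted p = 0.302 in Stra8KO. Acat2, which joins 2 acetyl-CoA, fell in Stra8KO (-0.22 ± 0.068, adjusted p = 0.00629), and its value in Spo11KO was -0.011. The kinases and the decarboxylase that act on mevalonate and the synthase of farnesyl diphosphate were not called with NRRA: the values in Stra8KO and Spo11KO were 0.12 and -0.11 for Mvk, 0.20 and 0.22 for Pmvk, -0.087 and 0.12 for Mvd, and -0.084 and -0.28 for Fdps.

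From squalene to cholesterol, 2 of 11 genes rose and 4 fell in Stra8KO, and 1 rose and 7 fell in Spo11KO. Sqle, the squalene epoxidase, had 66.7 and 65.3 CPM with Veh against 57.9 and 56.6 with NRRA in Stra8KO, and 96.6 and 90.2 with Veh against 57.8 and 56.2 with NRRA in Spo11KO. Lss, which closes squalene epoxide to lanosterol, had 58.95 and 60.4, 43.6 and 43.1, 66.5 and 68.3 and 40.3 and 40.9 CPM in the same order of groups. In each culture Veh and NRRA did not overlap, and the Spo11KO Veh libraries were the highest for both genes. Under NRRA the cultures' libraries overlapped for Sqle and lay apart for Lss, with no call between the cultures for either. The falls were -0.21 ± 0.056, adjusted p = 0.002 in Stra8KO and -0.71 ± 0.052, adjusted p = 1.06e-16 in Spo11KO for Sqle, and -0.46 ± 0.059, adjusted p = 4.91e-09 and -0.73 ± 0.056, adjusted p = 7.73e-16 for Lss. Cyp51, the lanosterol demethylase, fell in both as well (-0.22 ± 0.055, adjusted p = 0.00096 in Stra8KO and -0.50 ± 0.054, adjusted p = 2.56e-11 in Spo11KO).

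Among the enzymes that remove methyl groups from the ring, the members differed in direction. Hsd17b7, a ketosteroid reductase, had 77.9 and 72.4 CPM with Veh against 49.9 and 45.8 with NRRA in Stra8KO, and 57.3 and 55.7 with Veh against 40.9 and 45.9 with NRRA in Spo11KO, and here the Stra8KO Veh libraries were the highest. It fell in both cultures (-0.65 ± 0.061, adjusted p = 6.03e-13 in Stra8KO, -0.38 ± 0.061, adjusted p = 7.76e-07 in Spo11KO). Msmo1, the methylsterol oxidase, fell in Spo11KO (-0.29 ± 0.064, adjusted p = 0.00012) and had a value of -0.041 in Stra8KO. Nsdhl, the dehydrogenase of the same step, rose in Stra8KO (0.21 ± 0.064, adjusted p = 0.00587) and had a value of -0.14 in Spo11KO. The Nsdhl call in Stra8KO was lost without 1 of 2 libraries as given above, and in DESeq2 (0.18, adjusted p = 0.096).

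The last reductase of the pathway, Dhcr7, moved in opposite directions in the 2 cultures. It had 46.8 and 43.4 CPM with Veh against 58.9 and 63.9 with NRRA in Stra8KO, and 57.6 and 56.7 with Veh against 45.9 and 47.4 with NRRA in Spo11KO. Veh and NRRA libraries did not overlap in either culture, and the changes were 0.44 ± 0.061, adjusted p = 2.73e-08 and -0.29 ± 0.059, adjusted p = 3.53e-05. Sc5d, the sterol desaturase, rose in Spo11KO (0.31 ± 0.057, adjusted p = 7.39e-06) with a value of 0.063 in Stra8KO. Fdft1, the squalene synthase, fell in Spo11KO (-0.12 ± 0.048, adjusted p = 0.0317), a call lost without 1 of 3 libraries as given above, and had -0.10 in Stra8KO. The Fdft1 call in Spo11KO was also lost on total counts (-0.030, adjusted p = 0.625), in DESeq2 (adjusted p = 0.128) and with no filter (-0.074, adjusted p = 0.378). The sterol isomerase Ebp had 0.20 and 0.085 and the sterol reductase Tm7sf2 -0.02 and 0.31 in Stra8KO and Spo11KO, with no call.

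**Figure D2:**
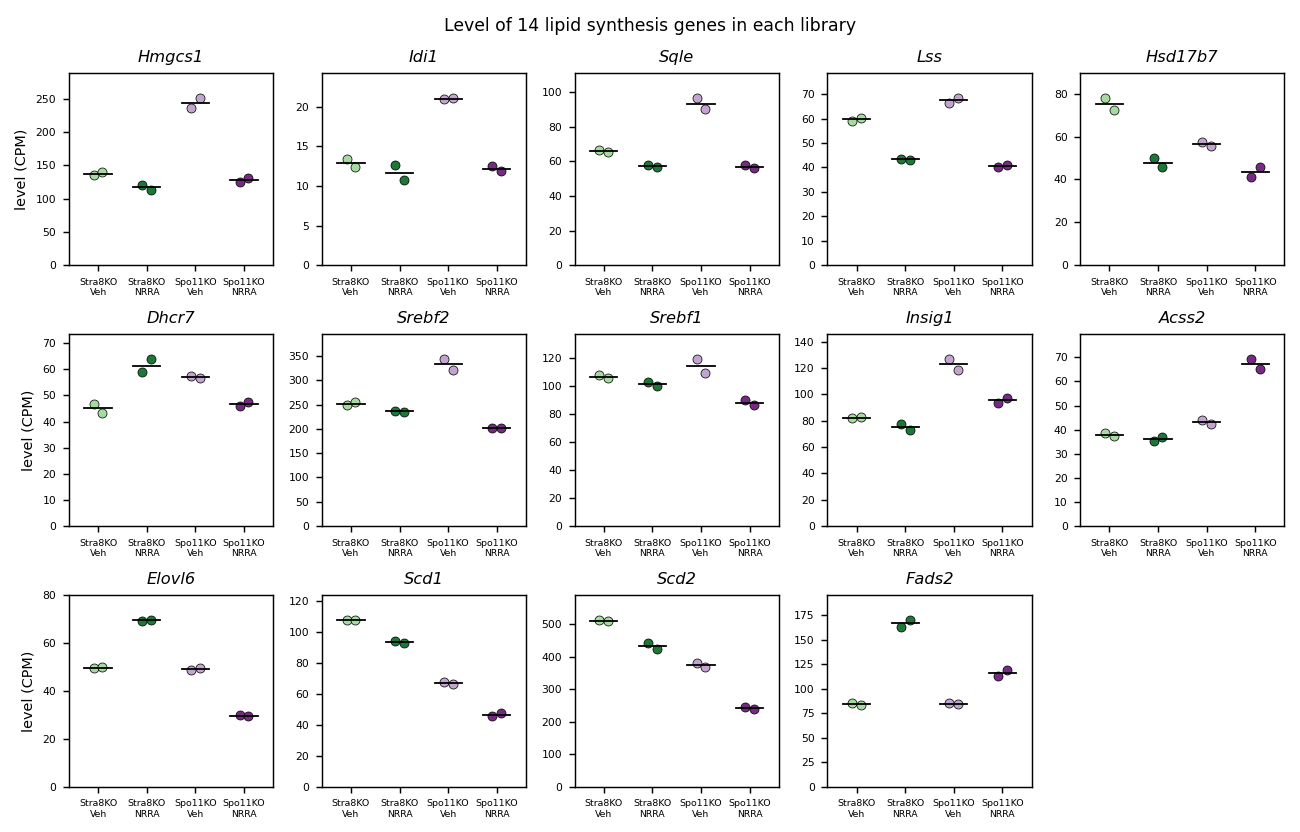
Level in CPM (y axis, from 0) of 14 genes in each of the 8 libraries (points, 2 per group), with the group mean as a line; the groups are on the x axis. The Spo11KO Veh libraries are the highest for Hmgcs1, Idi1, Sqle, Lss, Srebf2 and Insig1, and Elovl6 is near one level in both Veh groups and lies apart under NRRA.

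All 4 genes of the regulator group fell with NRRA in Spo11KO, and 1 fell in Stra8KO. Srebf2 (chr15:82147181-82205379, GRCm38) had 248.4 and 254.4 CPM with Veh against 237.8 and 234.3 with NRRA in Stra8KO, and 343.6 and 321.6 with Veh against 200.8 and 202.1 with NRRA in Spo11KO. With TMM scaling the order of the cultures thus turned over, with Spo11KO the higher in Veh and the lower in NRRA. On total counts the difference between the cultures in NRRA was 0.021 (adjusted p = 0.645), with no call. The Srebf2 change with NRRA was -0.72 ± 0.039, adjusted p = 1.23e-21 in Spo11KO, and -0.091 ± 0.04, adjusted p = 0.0608 in Stra8KO. In Stra8KO the libraries did not overlap although the gene was not called. Srebf1 had 107.7 and 105.9, 102.8 and 100.5, 119.4 and 109.6 and 90.1 and 86.6 CPM in the same order of groups. It fell in Spo11KO (-0.38 ± 0.047, adjusted p = 2.63e-09), and its value in Stra8KO was -0.072 ± 0.049. Insig1, which holds the SREBP precursors in the endoplasmic reticulum and is itself an SREBP target, had 81.98 and 82.8 CPM with Veh against 77.1 and 72.9 with NRRA in Stra8KO, and 126.8 and 118.8 with Veh against 93.7 and 97.4 with NRRA in Spo11KO. It stayed higher in Spo11KO than in Stra8KO in both media, and changed by -0.14 ± 0.051, adjusted p = 0.0295 in Stra8KO and -0.36 ± 0.047, adjusted p = 5.84e-09 in Spo11KO. Stard4, a carrier of cholesterol between membranes, fell in Spo11KO (-0.34 ± 0.061, adjusted p = 5.67e-06) and had a value of 0.057 in Stra8KO.

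Of the 4 fatty acid synthesis genes, 3 fell in Stra8KO, and in Spo11KO 2 rose and 1 fell. Acss2, which makes acetyl-CoA from acetate, had 38.5 and 37.4 CPM with Veh against 35.2 and 36.9 with NRRA in Stra8KO, and 43.8 and 42.2 with Veh against 69.3 and 65.2 with NRRA in Spo11KO. The Spo11KO NRRA pair lay above the other 6 libraries, and the rise in Spo11KO was 0.64 ± 0.058, adjusted p = 1.9e-13, the largest of any member there, with -0.073 ± 0.066 and no call in Stra8KO. Fasn, the synthase that makes palmitate, fell in both cultures (-0.54 ± 0.036, adjusted p = 5.65e-18 in Stra8KO and -0.40 ± 0.036, adjusted p = 1.12e-13 in Spo11KO). Acly, which makes acetyl-CoA from citrate, fell in Stra8KO (-0.21 ± 0.037, adjusted p = 6.27e-06) and was at 372.1 and 367 CPM with Veh and 370.4 and 367 with NRRA in Spo11KO. Acaca, which makes malonyl-CoA, had the 2 opposite calls of -0.11 ± 0.043 in Stra8KO, lost without 1 of 3 libraries as given above, and 0.15 ± 0.04, adjusted p = 0.00158 in Spo11KO.

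In elongation and desaturation all 5 genes were called in both cultures. Elovl6, which lengthens palmitate (chr3:129532355-129638495, GRCm38), had 49.7 and 49.9 CPM in Stra8KO Veh and 48.9 and 49.8 in Spo11KO Veh, which overlap, and 69.4 and 69.7 in Stra8KO NRRA and 29.8 and 29.6 in Spo11KO NRRA, which lie far apart. It rose in Stra8KO (0.48 ± 0.057, adjusted p = 7.43e-10) and fell in Spo11KO (-0.73 ± 0.061, adjusted p = 1.09e-14). Fads2, the first desaturase of polyunsaturated fatty acid synthesis (chr19:10062765-10101746, GRCm38), had 85.1 and 83.2 CPM with Veh against 163.3 and 170 with NRRA in Stra8KO, and 84.9 and 84.4 with Veh against 113.4 and 119.2 with NRRA in Spo11KO. The Veh groups overlapped, and both NRRA groups lay above them. The rise was 0.98 ± 0.046, adjusted p = 6.13e-24 in Stra8KO, the largest change of any member with NRRA, and 0.46 ± 0.046, adjusted p = 4.49e-12 in Spo11KO. Fads1, the desaturase that follows it and whose gene lies beside it (chr19:10182888-10196877), rose in both as well (0.42 ± 0.044, adjusted p = 1.58e-11 and 0.17 ± 0.045, adjusted p = 0.00178), the call in Spo11KO being lost without NRRA replicate 2 (0.10, adjusted p = 0.135).

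The stearoyl-CoA desaturases Scd1 and Scd2 put the first double bond into saturated fatty acids, and both fell in both cultures. Scd2 had 512.5 and 508.6 CPM with Veh against 442.4 and 422.3 with NRRA in Stra8KO, and 380.9 and 367.4 with Veh against 246.3 and 237.9 with NRRA in Spo11KO, so that the 4 groups stood in one descending order without overlap. Scd1 had 107.7 and 107.7, 94.2 and 93.05, 67.9 and 66.6 and 45.4 and 47.7 CPM and the same order. The falls were -0.20 ± 0.049, adjusted p = 0.00059 in Stra8KO and -0.53 ± 0.053, adjusted p = 3.15e-12 in Spo11KO for Scd1, and -0.24 ± 0.037, adjusted p = 3.77e-07 and -0.63 ± 0.038, adjusted p = 8.34e-20 for Scd2.

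Whether the NRRA effect differed between the cultures was tested by the interaction, the effect in Stra8KO minus that in Spo11KO. It was called for 23 of the 31 genes, 17 with a higher and 6 with a lower value in Stra8KO, where 14.8% of all tested genes had a higher and 10.3% a lower value. All 5 elongation and desaturation genes and all 4 regulators were among the 17, with 6 genes of the squalene to cholesterol group and 2 of the mevalonate pathway. All 4 fatty acid synthesis genes, Hsd17b7 and Sc5d were the 6 with a lower value. The largest differences were 1.21 ± 0.084, adjusted p = 9.27e-17 for Elovl6, 0.74 ± 0.084, adjusted p = 9.28e-10 for Dhcr7 and -0.72 ± 0.088, adjusted p = 5.9e-09 for Acss2. Hmgcs1 (0.70 ± 0.062, adjusted p = 5.08e-13), Idi1 (0.64 ± 0.14, adjusted p = 0.000497), Srebf2 (0.63 ± 0.055, adjusted p = 2.85e-13), Fads2 (0.53 ± 0.065, adjusted p = 6.98e-09) and Sqle (0.51 ± 0.076, adjusted p = 5.97e-07) followed. The median over the members was 0.25, beside 0.013 over all tested genes. Of the 23, 17 kept their call without any 1 of the 8 libraries. The other 6 lost it in at least 1 of these fits. The fit with the highest adjusted p gave -0.10 for Fasn without Spo11KO Veh replicate 2 (adjusted p = 0.184), -0.18 for Hsd17b7 without Spo11KO NRRA replicate 2 (adjusted p = 0.171), and 0.19 for Insig1 without Stra8KO NRRA replicate 1 (adjusted p = 0.0883). It gave 0.25 for Lss without Stra8KO Veh replicate 1 (adjusted p = 0.0598), 0.22 for Msmo1 without Spo11KO NRRA replicate 2 (adjusted p = 0.12), and -0.16 for Sc5d without Spo11KO Veh replicate 1 (adjusted p = 0.161). With total counts the median of all tested genes moved by -0.093, 13 members had a higher and 8 a lower value, and 38.7% of all calls were higher against 59% with TMM.

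The cultures also differed from each other in both media. In Veh, 12 members were higher and 13 lower in Stra8KO than in Spo11KO, where 31.6% of all tested genes were higher and 30.7% lower. In NRRA, 16 were higher and 8 lower, where 35% of all tested genes were higher and 28.9% lower. The members called higher were 38.7% of the 31 in Veh and 51.6% in NRRA. With total counts, which moved the median of all tested genes by -0.11 in Veh and -0.21 in NRRA, 8 members were higher and 16 lower in Veh and 12 were higher and 12 lower in NRRA, and of all calls in NRRA 39.5% were higher against 54.8% with TMM. Of the members, 10 were higher in Stra8KO in both media (Mvk, Pmvk, Tm7sf2, Msmo1, Nsdhl, Ebp, Sc5d, Scd1, Scd2 and Fads1) and 7 lower in both (Hmgcs1, Mvd, Insig1, Stard4, Acss2, Acaca and Fasn). The share of all tested genes higher or lower in both media is not given here. Dhcr7 and Srebf2 were lower in Veh and higher in NRRA. On total counts Srebf2 (0.021, adjusted p = 0.645), Cyp51 (0.10, adjusted p = 0.0992), Srebf1 (-0.0043, adjusted p = 0.942) and Pmvk (0.13, adjusted p = 0.356) were not called in NRRA, where TMM scaling had them higher. In Veh the same was so for Pmvk (0.24, adjusted p = 0.116), Msmo1 (0.070, adjusted p = 0.343), Nsdhl (0.10, adjusted p = 0.179) and Acat2 (0.036, adjusted p = 0.655). These 2 comparisons share no library, but each shares its libraries with the NRRA comparisons above, so that a high level in Spo11KO Veh enters both the genotype difference in Veh and the NRRA effect in Spo11KO.

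The largest differences in Veh were in single genes of sterol handling. Tm7sf2 was higher in Stra8KO (1.11 ± 0.2, adjusted p = 4.56e-06), at 4.61 and 4.73 CPM against 2.23 and 2.09, and Stard4 was lower (-1.11 ± 0.067, adjusted p = 7.72e-20), at 28.2 and 30.1 CPM against 66.5 and 59.1. They were the only members with a 2-fold difference in Veh. Hmgcs1 (-0.83 ± 0.043), Idi1 (-0.70 ± 0.098), Insig1 (-0.58 ± 0.049), Acaca (-0.56 ± 0.042) and Sqle (-0.50 ± 0.053) were lower in Stra8KO. Sc5d (0.73 ± 0.057), Scd1 (0.68 ± 0.05), Ebp (0.60 ± 0.14) and Fads1 (0.53 ± 0.046) were higher. In NRRA, Elovl6 (1.23 ± 0.059, adjusted p = 1.07e-23) and Scd1 (1.01 ± 0.051, adjusted p = 1e-22) were the members higher by at least 2-fold. All 5 elongation and desaturation genes were higher in Stra8KO NRRA than in Spo11KO NRRA, and all 4 fatty acid synthesis genes were lower, Acss2 by 0.90 and Acaca by 0.82 on the log2 scale. In DESeq2, 9 members were called higher and 10 lower in Veh, against 12 and 13 in edgeR. Those without a call in DESeq2 were Acat2 (adjusted p = 0.139), Fdft1 (0.141), Mvd (0.13), Pmvk (0.0953), Acss2 (0.0682) and Msmo1 (0.05). In NRRA, Pmvk lost its call in DESeq2 (adjusted p = 0.154). In Veh, 16 of the 25 called members kept their call without any 1 library. The other 9 lost it in at least 1 such fit, with an adjusted p of 0.316 for Acat2 (0.093) and 0.228 for Fdft1 (-0.085) without Spo11KO Veh replicate 2, of 0.249 for Mvd (-0.13) and 0.204 for Fasn (-0.063) without Spo11KO Veh replicate 1, and of 0.0898 for Acss2 (-0.16) without Stra8KO Veh replicate 2. Without Stra8KO Veh replicate 1, Lss (-0.16, adjusted p = 0.0636), Msmo1 (0.16, adjusted p = 0.0866), Nsdhl (0.19, adjusted p = 0.0502) and Pmvk (0.32, adjusted p = 0.0973) lost their calls. In NRRA, 22 of the 24 kept it, and Hmgcs1 (-0.090, adjusted p = 0.17, without Stra8KO NRRA replicate 2) and Pmvk (0.33, adjusted p = 0.0681, without Spo11KO NRRA replicate 2) did not.

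Markers of the cells in these cultures differed between Stra8KO and Spo11KO. Each knockout was present only in its own cultures, so genotype cannot be told apart from other differences between the cultures. All 19 fibroblast markers were higher in Stra8KO in Veh (median 0.93, range 0.45 to 1.55) and in NRRA (median 0.90, range 0.71 to 1.08), and all 8 pan-germ markers were lower (median -0.98 in both media, range -1.15 to -0.60 and -1.24 to -0.19). The summed level of the fibroblast markers was 27330 and 27990 CPM with Veh against 44250 and 43590 with NRRA in Stra8KO, and 14450 and 14530 with Veh against 23070 and 22320 with NRRA in Spo11KO, and was thus higher with NRRA in both cultures, mostly through 3 collagen genes. That of the pan-germ markers was 721.7 and 720.7, 873.9 and 831.3, 1453 and 1507, and 1621 and 1692 CPM in the same order. No marker of either list was at 3 counts or fewer in all libraries. In Veh, 6 members (Tm7sf2, Sc5d, Scd1, Ebp, Fads1 and Scd2) had a genotype difference within the range of the fibroblast markers, and 3 (Stard4, Hmgcs1 and Idi1) within that of the pan-germ markers. In NRRA, 5 (Scd1, Scd2, Fads1, Tm7sf2 and Ebp) and 7 (Acss2, Acaca, Stard4, Mvd, Insig1, Acly and Fasn) did. These ranges are wide, and the share of all tested genes that lie within them is not given here. The part of the cell mix in the member differences was not tested. The collagen genes Col1a1, Col1a2 and Col3a1 rose with NRRA by 1.46, 1.39 and 1.78 in Stra8KO and by 1.32, 1.35 and 1.68 in Spo11KO, while S100a4 (-2.18 and -1.66), Fn1 (-0.42 and -0.38), Lum (-0.73 and -0.52), Prrx1 (-0.55 and -0.38) and Col6a3 (-0.85 and -0.65) fell in both. With NRRA, 11 of the 19 fibroblast markers rose and 6 fell in Stra8KO (median 0.47), and 12 rose and 7 fell in Spo11KO (median 0.19). Of the 8 pan-germ markers, 5 rose in each culture (median 0.18 and 0.16) and 1 fell in Spo11KO.

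**Figure D3:**
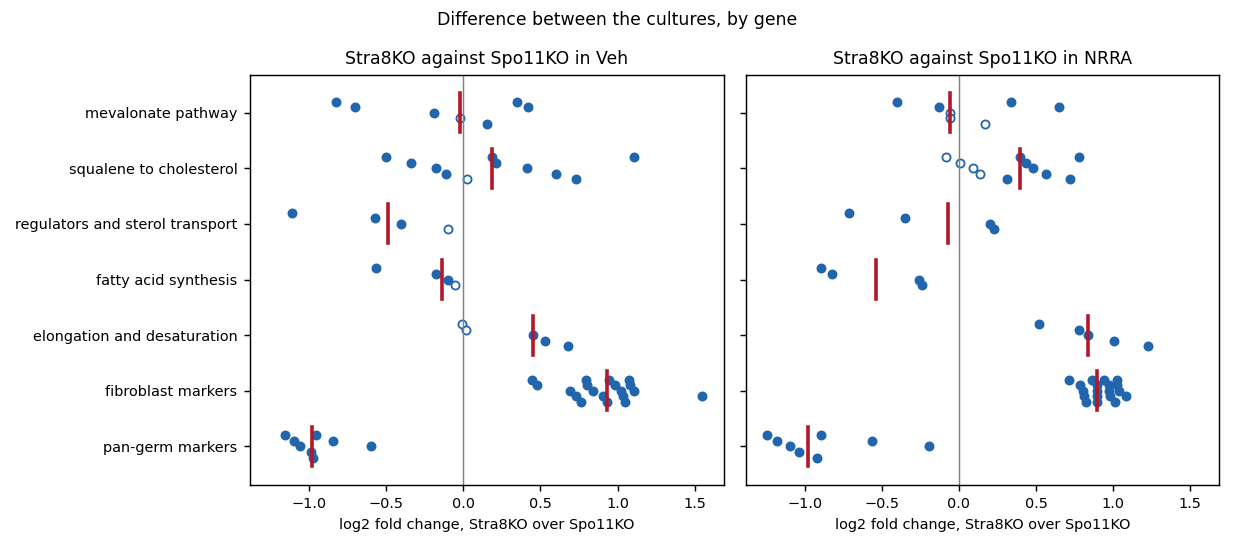
Log2 fold change of Stra8KO over Spo11KO (x axis) in Veh (left) and NRRA (right) for the genes of each group of members and of the fibroblast and pan-germ marker lists (y axis). Each point is 1 gene, filled where called, and the red bar is the median of its row; the fibroblast row lies wholly right of 0 and the pan-germ row wholly left of it, with the members spread on both sides of 0 and Elovl6 in NRRA, at 1.23, beyond the highest fibroblast marker.

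Other cell types were near the limit of detection or small. Of 6 adipocyte markers only Fabp4 passed the filter, Cfd had 0 counts in every library, and the summed level was 2.87 to 14.1 CPM, highest in Stra8KO Veh and lower with NRRA in both cultures. Macrophage markers summed to 36.2 to 63.2 CPM, Sertoli cell markers to 17.7 to 50.1 and Leydig cell markers to 5.83 to 8.63, against 2821 to 3545 CPM for the 31 genes. Macrophage markers were higher in Stra8KO for 3 of 7 tested genes and lower for 1 in Veh, and higher for 6 of 7 in NRRA. Sertoli markers, of which 4 of 8 were tested, were higher in Stra8KO for 2 of 4 in Veh and 3 of 4 in NRRA. They fell for 1 gene with NRRA in each culture and rose for 1 in Stra8KO. Their part in the member differences was not tested.

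Levels can be compared between genes only per length. Per kilobase of exon, the mean level in Stra8KO Veh ran from 1.06 CPM per kb for Tm7sf2 to 93.4 for Scd2, and Scd2 (93.4), Acly (67.4) and Fasn (55.8) stood above all others. In Spo11KO NRRA the same 3 genes led, with Acly at 69.8, Fasn at 45.2 and Scd2 at 44.3 CPM per kb. Srebf2 was above Srebf1 in all 4 groups (35 against 18.96 CPM per kb in Stra8KO Veh, 28.04 against 15.7 in Spo11KO NRRA), and Scd2 above Scd1 (93.4 against 22.02 in Stra8KO Veh). Summed over the mevalonate pathway, the level was 258.6 and 260.8 CPM with Veh against 237.1 and 228.2 with NRRA in Stra8KO, and 363.6 and 368.6 with Veh against 244.2 and 241 with NRRA in Spo11KO. Hmgcs1 alone made up 50.2% to 66.6% of that sum. By mean level, 12 of the 31 genes were highest in Spo11KO Veh and 13 were lowest in Spo11KO NRRA, and the same shares over all tested genes are not given here.

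Related lists were counted in the same way, to be read against the 21.6% of all tested genes that rose and 20.2% that fell in Stra8KO and the 24.5% and 25.5% in Spo11KO. Of the 8 sterol efflux and LXR genes, 6 were higher in each culture and the others were not called. Their median was 0.69 in Stra8KO and 0.42 in Spo11KO, beside 0.014 and 0.013 over all tested genes. The list holds Nr1h2 and Nr1h3, the genes of the LXR receptors themselves, beside target genes. Abcg1 (mean 42.5 CPM with Veh, 40.6 with NRRA) and Lpcat3 (69.97 and 64.7) did not rise in Stra8KO. Apoe (18.7 and 17.6) did not rise in Spo11KO. Among the rises in Stra8KO, that of Nr1h3 (0.81) lost its call without Veh replicate 2 (0.54, adjusted p = 0.168), without NRRA replicate 1 (0.67, adjusted p = 0.0959) and in DESeq2 (0.80, adjusted p = 0.0969). Abca1, the cholesterol exporter, rose by 1.25 ± 0.042 and 0.81 ± 0.041, and Smpdl3a, a phosphodiesterase and LXR target, by 0.99 ± 0.083 and 1.06 ± 0.094 in Stra8KO and Spo11KO. Mylip, a ligase that marks lipoprotein receptors for degradation, rose by 1.02 ± 0.091 in Spo11KO. Other SREBP-linked genes fell in 8 of 10 tested cases and rose in 1 in Spo11KO (median -0.23), against 4 falls and 3 rises in Stra8KO (median 0.064). Acacb, the acetyl-CoA carboxylase of mitochondria, fell by 0.99 in Spo11KO on the log2 scale, and Mid1ip1, an activator of acetyl-CoA carboxylase, fell by 0.79 in Stra8KO and 0.57 in Spo11KO. Gpam, which starts glycerolipid synthesis, rose in both (0.34 ± 0.082 and 0.39 ± 0.079).

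Of 8 genes of the machinery that carries, cuts and degrades SREBP, 1 rose in Stra8KO and 2 fell. The rise was that of Rnf139 (0.21), which lost its call without Stra8KO Veh replicate 1 (0.20, adjusted p = 0.0883) and without each other Stra8KO library. The falls were those of Rnf145 (-0.32 ± 0.045) and Scap, the escort of SREBP (-0.15 ± 0.038). In Spo11KO, 4 rose and 1 fell, and Rnf139, a ubiquitin ligase of the endoplasmic reticulum, was among the rises (0.45 ± 0.067). The fall, that of Mbtps2 (-0.19), lost its call on total counts (-0.10, adjusted p = 0.304), in DESeq2 (-0.19, adjusted p = 0.192), and without Veh replicate 2 (-0.15, adjusted p = 0.216) or NRRA replicate 1 (-0.12, adjusted p = 0.309). Among genes of sterol uptake, storage and traffic, 7 of 12 were lower and 2 higher in Stra8KO and 4 lower and 2 higher in Spo11KO. Neither rise in Stra8KO held without each library: Osbpl2 lost its call without Veh replicate 1 (0.18, adjusted p = 0.0622) or NRRA replicate 2 (0.18, adjusted p = 0.0533), and Lrp1 without any 1 of the 4 Stra8KO libraries (adjusted p = 0.216 without NRRA replicate 2, at 0.067) and in DESeq2 (0.053, adjusted p = 0.124). Of the rises in Spo11KO, that of Osbp lost its call without NRRA replicate 2 (0.097, adjusted p = 0.226). Nceh1, a cholesteryl ester hydrolase, fell in Stra8KO (-0.94 ± 0.082), and Vldlr, a lipoprotein receptor, fell in both (-0.34 ± 0.081 and -0.77 ± 0.086).

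Of 17 fatty acid oxidation genes, 4 rose and 5 fell in Stra8KO and 8 rose and 4 fell in Spo11KO. In Stra8KO these are 23.5% and 29.4% of the list, near the shares of all tested genes. Pdk4, a kinase that holds back pyruvate oxidation, rose in both (1.40 ± 0.096 and 1.38 ± 0.13). Cpt1a, the gate of fatty acid entry into mitochondria, fell in both (-0.78 ± 0.038 and -0.66 ± 0.039), and Ehhadh, a peroxisomal enzyme, rose in Spo11KO (1.26 ± 0.21). Its rise in Stra8KO (0.70) lost its call in DESeq2 (0.67, adjusted p = 0.0609) and without Veh replicate 2 (0.53). The rise of Ppara in Spo11KO (0.86) lost its call in DESeq2 (0.88, adjusted p = 0.219) and without Veh replicate 1 (0.47) or NRRA replicate 1 (0.48). In triglyceride storage, 2 of 8 rose and 5 fell in Stra8KO and 3 rose and 3 fell in Spo11KO. Of these in Spo11KO, the rise of Lipe (0.34) lost its call without Veh replicate 2 (0.21). The fall of Agpat2 there (-0.30) lost its call on total counts (-0.21, adjusted p = 0.0677), in DESeq2 (-0.30, adjusted p = 0.0688), and without Veh replicate 1 (-0.25) or NRRA replicate 2 (-0.25). The lipid droplet coat gene Plin2 fell in both (-0.99 ± 0.039 and -0.79 ± 0.041) and the lipase gene Mgll rose in both (1.55 ± 0.087 and 1.38 ± 0.088). Of 9 genes that use isoprenoids for other ends, such as prenylation and dolichol synthesis, 1 rose and 1 fell in Stra8KO and 2 rose and 2 fell in Spo11KO. The rise in Stra8KO, that of Pggt1b, lost its call without NRRA replicate 1 (0.098, adjusted p = 0.366), without 5 other libraries and in DESeq2 (0.13, adjusted p = 0.277). Of the falls in Spo11KO, that of Fntb lost its call on total counts (-0.13, adjusted p = 0.185), in DESeq2 (-0.22, adjusted p = 0.128), and without Veh replicate 1 (-0.22, adjusted p = 0.0661) or NRRA replicate 2 (-0.22, adjusted p = 0.0697). Nus1, of dolichol synthesis, fell in both (-0.36 ± 0.047 and -0.21 ± 0.048).

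**Figure D4:**
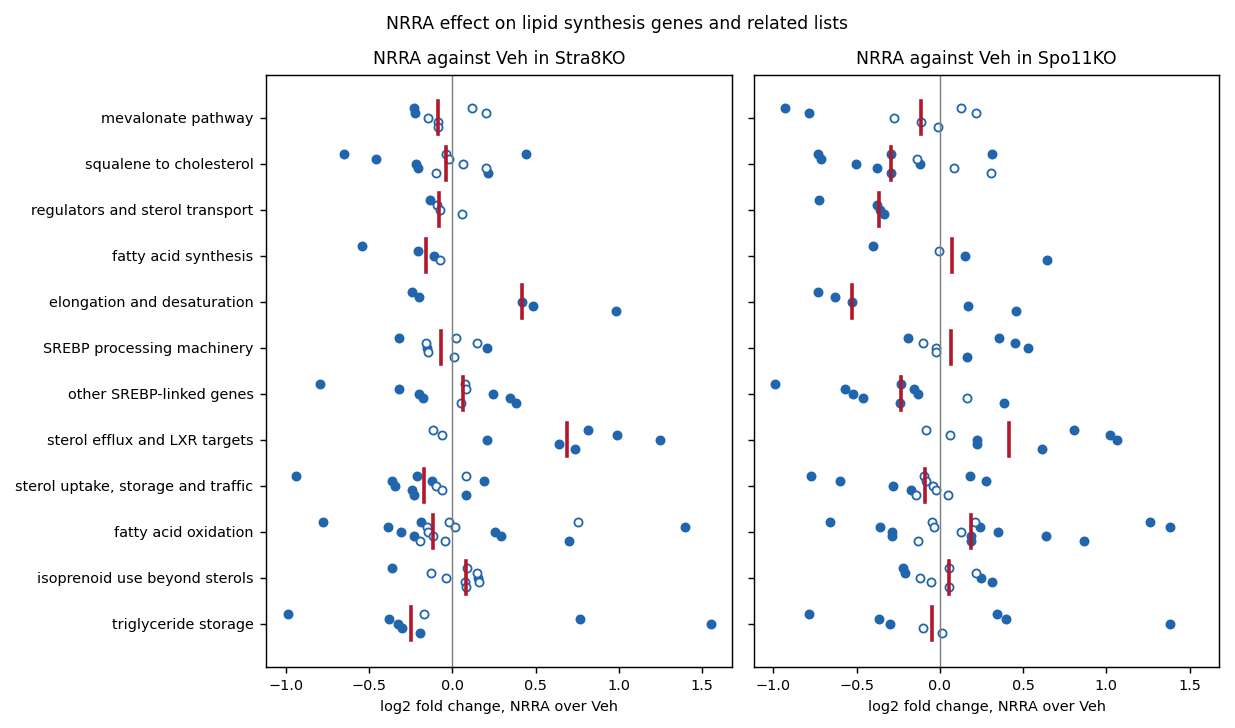
Log2 fold change of NRRA over Veh (x axis) in Stra8KO (left) and Spo11KO (right) for the genes of each group of members (upper 5 rows) and of 7 related lists (y axis). Each point is 1 gene, filled where called, and the red bar is the median of its row; the medians of the sterol efflux row, 0.69 and 0.42, lie right of 0 in both panels, and that of the elongation and desaturation row is 0.42 in Stra8KO and -0.53 in Spo11KO.

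Some members share exons or sequence with other genes, and the libraries were stranded by the study's methods, but neither the strand setting of the counting nor its handling of multiply mapped reads was given in the sources used here, so their levels are uncertain. Gm48342 is annotated antisense to Hmgcs1 over 12.1% of its exon length. It had changes of -0.21 in Stra8KO and -0.92 in Spo11KO with NRRA, close to those of Hmgcs1 (-0.23 and -0.93), and 7234 counts over the 8 libraries against 29198, and its reads can be told from those of Hmgcs1 only if the counting used strand. Acss2os, antisense to Acss2 over 3.3% of its exon length, had 458 counts against 8847 and rose by 0.89 ± 0.22 in Spo11KO. 4930483K19Rik, antisense to Lss over 3.53% of its exon length, had -0.59 and -1.09. In Stra8KO these 2 partner genes lost their calls without 1 library (Gm48342 without Veh replicate 2 at -0.15, adjusted p = 0.187, or NRRA replicate 2 at -0.20, adjusted p = 0.0697; 4930483K19Rik without Veh replicate 1 at -0.50, adjusted p = 0.118, or NRRA replicate 1 at -0.41, adjusted p = 0.182). Fdft1 shares 18.3% of its exon length with Ctsb on the opposite strand, a gene with 179454 counts against 15494 that was higher in Stra8KO by 1.02 in Veh and 1.00 in NRRA. Fdps shares 26.7% with Gm43738 and Tm7sf2 12.1% with Vps51 on the same strand. By sequence, 28.7% of the stretches of just over 100 bases in Acat2 transcripts also occur in Acat3, 23.6% of those of Acaca, 21.3% of those of Fdps and 15.8% of those of Idi1 in other genes, and 7.89% or less in every other member.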

How the data were processed

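RNA-seq counts per gene of 8 libraries (2 per group) were analysed. Per the labels and the submitters' processing notes, the authors processed reads with bcl2fastq, STAR 2.6.1c and featureCounts 1.6.4 on mm10. The deposited values are raw read counts without normalization, for 55421 genes, of which 39921 had a count. The annotation release, strand setting and treatment of multiply mapped reads are not given in the sources used here. Of the gene identifiers, 55154 matched GENCODE M21, from which names and exon lengths were taken.

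Genes were filtered with filterByExpr (20588 kept, holding 99.88% of counts), scaled by TMM, and tested with edgeR 4.0.16 in R 4.3.3 (robust glmQLFit and glmQLFTest, 1 model of 4 group means, two-sided). P-values were adjusted by Benjamini-Hochberg over all tested genes, and genes under 0.05 were called. The study's methods name DESeq2 for testing. DESeq2 1.42.0 was run as an alternative, beside total-count scaling, DESeq2 size factors in edgeR, no filter, fits of only the groups compared, a replicate block and leaving out each library. Standard errors are the log2 fold change over the square root of F. CPM per kb used the union of exons. Replicates differed beyond counting noise (median chi-square per gene 0.741 to 0.974 against 0.455 for noise), so none was counted as a duplicate. Library totals are in the text, and a gene at 3 counts or fewer in every library was taken as not detected. The tests were tested on simulated data.

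The 31 genes and all lists were chosen with earlier results of these data known. The genes described with values per library were Srebf1, Srebf2, Insig1, Scd1, Scd2 and the 10 with the largest change in an NRRA comparison or the interaction among called members. Values of Acly, Tm7sf2, Stard4 and the fibroblast genes were added after they were seen. In each related list up to 3 genes per direction were named. The related lists were those of SREBP processing, other SREBP-linked genes, sterol efflux and LXR targets, sterol uptake, fatty acid oxidation, isoprenoid use and triglyceride storage, with markers of fibroblasts, germ cells, macrophages, Sertoli, Leydig and fat cells. Promoters came from RefSeq (GRCm38.p6). Some genes of these lists are not reported here.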

Additional observations from a re-analysis of the deposited data

Results flagged for a closer look

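For 23 of the 31 genes the effect of NRRA differed between the Stra8KO and Spo11KO cultures by the interaction test (edgeR's quasi-likelihood test, adjusted p under 0.05, 2 libraries per group); values are the log2 effect in Stra8KO minus that in Spo11KO. In the mevalonate pathway the difference was 0.70 for Hmgcs1 and 0.64 for Idi1. From squalene to cholesterol it was 0.51 for Sqle, 0.27 for Lss, 0.29 for Cyp51, 0.25 for Msmo1, 0.35 for Nsdhl and 0.74 for Dhcr7, and it had the other sign for Hsd17b7 (-0.28) and Sc5d (-0.25). For the regulators and the sterol carrier it was 0.30 for Srebf1, 0.63 for Srebf2, 0.23 for Insig1 and 0.40 for Stard4. In fatty acid synthesis it was -0.20 for Acly, -0.72 for Acss2, -0.26 for Acaca and -0.14 for Fasn. In elongation and desaturation it was 1.21 for Elovl6, 0.33 for Scd1, 0.39 for Scd2, 0.25 for Fads1 and 0.53 for Fads2.

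Elovl6 and Dhcr7 were called in opposite directions in the 2 cultures. Acaca was too, but its fall in Stra8KO lost its call when 1 of 3 libraries was left out. Cyp51 lost the call of its difference on total counts (0.19, adjusted p = 0.0525) and in DESeq2 (0.25, adjusted p = 0.0545), and Nsdhl (0.32, adjusted p = 0.0524) and Hsd17b7 (-0.31, adjusted p = 0.0514) did in DESeq2. Lss, Msmo1 and Insig1 lost theirs on total counts (0.18, adjusted p = 0.103; 0.16, adjusted p = 0.201; 0.13, adjusted p = 0.156), in DESeq2 (adjusted p = 0.114, 0.226 and 0.131) and with no filter (adjusted p = 0.0992, 0.214 and 0.134). These 3, Fasn, Hsd17b7 and Sc5d also lost theirs when a single library was left out, with the values given in the report.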

How the results depend on the processing

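With a 2-fold minimum beside the adjusted p, the members called higher and lower were 0 and 0 with NRRA in Stra8KO, 0 and 0 in Spo11KO, 1 and 1 between cultures in Veh, 2 and 0 in NRRA, and 1 and 0 for the interaction. On total counts 8 members rose with NRRA in Spo11KO, and the member median was -0.20 there, -0.13 between cultures in Veh, 0.16 for the interaction, and reversed to -0.0043 between cultures in NRRA, set by Srebf1 (-0.0043). With no filter the medians were -0.10 in Stra8KO, -0.24 in Spo11KO, 0.15 between cultures in NRRA and 0.19 for the interaction. DESeq2 size factors gave -0.11 in Stra8KO and 0.22 for the interaction, the DESeq2 test -0.12 and 0.22, and the fit of the 2 NRRA groups alone 0.13. Near 0, with no call, Acat2 in Spo11KO reversed on total counts (0.081) and with no filter (0.037), and Acly in Spo11KO on total counts (0.089), with no filter (0.045), with DESeq2 size factors (0.0017) and in the DESeq2 test, at 0. Leaving out 1 library gave -0.12 to 0.075 for Acat2 and -0.026 to 0.0076 for Acly in Spo11KO, -0.20 to 0.019 for Fdps and -0.073 to 0.033 for Tm7sf2 in Stra8KO, and -0.65 to 0.021 for Fdps and -0.067 to 0.24 for Ebp in Spo11KO. The cause of these shifts was not tested.

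Without 1 library, 4 to 5 members rose and 10 to 13 fell in Stra8KO (median -0.100 to -0.073) and 4 to 5 rose and 16 to 17 fell in Spo11KO (median -0.32 to -0.25). Between cultures 8 to 12 were higher and 9 to 13 lower in Veh (median -0.064 to -0.0054), and 15 to 17 and 7 to 8 in NRRA (median 0.20 to 0.23). For the interaction 14 to 17 were higher and 4 to 6 lower (median 0.23 to 0.27). Where an arm kept 1 library, its spread was assumed to be that of the other groups.

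Replicate numbers are shared between groups. Deviations from the group means correlated at -0.027 to 0.056 between same-numbered libraries, which gave no clear sign that the numbers pair samples. Noise in single libraries lowers such a correlation, so weak pairing is not excluded. A fit with the replicate number as a block called 12 members lower between cultures in Veh against 13 (Fdft1 at -0.11, adjusted p = 0.053) and left the other counts of members as they were. Its medians with the block were -0.086, -0.29, -0.021, 0.20 and 0.25 in the order above. Over all genes the interaction was called higher for 3051 and lower for 2121 genes, against 1881 and 1477 in the DESeq2 test, 2188 and 3473 on total counts, and 2256 and 2656 with no filter (45.9% higher against 59%). The members with the fewest counts over the 8 libraries were Tm7sf2 (641) and Fdps (1282), whose standard errors with NRRA were 0.16 to 0.21. Over the other values and all settings, 4822 kept their direction and call or, where they were counts, stayed within a fixed ratio of the main count. Beyond that ratio 133 counts moved. Among the fold changes of single genes, 159 lost a call, 11 gained one and 14 reversed.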
